A study of Homo sapiens with 4 samples.

Results

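Internal introns of 20000 nt and more in protein-coding genes were examined in chromatin-bound RNA of K562 cells. Annotated introns of the deposited tables were placed on GENCODE 29, and those kept were neither the first nor the last of any transcript holding them and had at least 5 reads over them in every sample. The rule kept 332 of the 209481 unique introns placed, and of the 4753 internal introns of this length with reads in any sample. Length and reads over the intron chose them, and the share of those reads that carried the splice junction did not. They lay in 182 genes on 23 chromosomes, ran from 20025 to 172391 nt with a median of 32116 nt, and included 22 of 100000 nt and more. The shallowest sample set most of the limit: 1268 and 1242 internal introns of this length had 5 reads in the 2 wild-type samples, 410 in K700E replicate 1 and 1256 in K700E replicate 2.

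K562 is an established line from a chronic myeloid leukaemia. Both groups were induced with doxycycline at 1 µg/ml and harvested 4 days later: 2 samples carried wild-type SF3B1 (WT) and 2 the K700E substitution. Long reads were made from RNA bound to chromatin and depleted of polyadenylated and ribosomal RNA, and the comparison concerns splicing that took place while RNA was still attached to chromatin. No label names separate cultures for the 2 samples of a group, and the spread behind each p-value may therefore be technical. The labels call the cells epithelial, whereas summed reads over introns of 10 erythroid marker genes came to 1719 to 3435 in every 1000000 read-intron overlaps of a sample, mostly of TFRC, with KLF1 at 0. Those of 8 epithelial marker genes came to 50.6 to 107, with CLDN4 at 0. Those of 3 lymphoid marker genes, mostly of PTPRC, came to 388 and 860 in WT and to 1495 and 1460 in K700E, and their part in the genotype comparisons was not tested.

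An intron is removed when the spliceosome joins its 5′ and 3′ splice sites, and SF3B1 is the part of the U2 small nuclear ribonucleoprotein that clamps the branch point near the 3′ splice site. In a very long intron the polymerase needs a long time to reach the 3′ splice site, and many other sequences along the way can serve as splice sites. Long introns of human genes are known to contain alternative exons, alternative promoters and whole small genes, so annotated introns often overlap.

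The exon junctions of the introns that the results turn on are given from GENCODE 29 transcripts as the last 15 bases of the upstream exon and the first 15 of the downstream exon. Capitals mark the 3 exon bases on each side of the junction. The TCF12 introns, and the ELP4 introns of 33803, 40899 and 54986 nt, show which ends compete for a shared 5′ splice site. The ELP4 intron of 21145 nt shares only the 3′ splice site of the 54986-nt intron. The NBAS and VPS41 junctions are those lowest and highest in K700E relative to WT, where all 4 samples had at least 10 reads and the groups did not overlap. The CPED1 and LRBA junctions are those with the most reads in their shallowest sample.
ELP4, intron of 33803 nt: gccaacattttaCAGATAaagaaagagctc
ELP4, intron of 40899 nt: gccaacattttaCAGGGTcttgctctgtca
ELP4, intron of 54986 nt: gccaacattttaCAGGAActtccagcacca
ELP4, intron of 21145 nt: gtctcttcttatAAGGAActtccagcacca
TCF12, intron of 142651 nt: aattcagtggatCAGGTAttgatgaaagag
TCF12, intron of 151554 nt: aattcagtggatCAGGTAcaatacacgaga
TCF12, intron of 170690 nt: aattcagtggatCAGGGTtttacagacagc
NBAS, intron of 23192 nt: ccaccctggtcaCAGACTtttacttgttgg
VPS41, intron of 28837 nt: acagatgagtctGAGGAAgaagagagcgaa
CPED1, intron of 24236 nt: cgcttcactgtcAAGCTGcaaacatttttt
LRBA, intron of 85361 nt: actgtctttaacCTGTTGgtaggaggacag

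The 332 introns held 8025 and 9264 reads in WT, against 3163 and 7984 in K700E. Their median was 17 and 20 reads per intron in WT, against 7.5 and 18 in K700E. Over all placed introns the 4 samples held 1346733, 1185006, 459681 and 909621 read-intron overlaps. Where one annotated intron lay wholly inside another and either had at least 10 reads, the outer one had no more reads than the inner one in 99.9% of 87868 pairs, and in 99.8% of the 27277 pairs whose outer intron was 20000 nt or longer. Counts thus behaved as if a read over an intron also counted over each annotated intron inside it. A read without the junction of a very long intron may carry a junction of another intron there, and the tables give neither read lengths nor unannotated junctions.

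Very long internal introns fell into a used and an unused class. In the mean over the 4 samples, 162 of the 332 introns carried their junction in at least 80% of reads, 129 in under 20% and 41 in between. Not a single junction read was seen in any sample for 68 introns, and 14 carried it in every read of every sample. A like division was seen in the 5751 internal introns of 1000 to under 20000 nt with the same read minimum. Of these, 3831 reached 80%, 1182 stayed under 20% and 738 lay between. The mean over the 332 introns was 54.0% and 53.5% for WT, against 52.7% and 54.3% for K700E. This mean lies between the classes, and few introns had such a value, as the plot of introns by junction use shows.

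**Figure D1:**
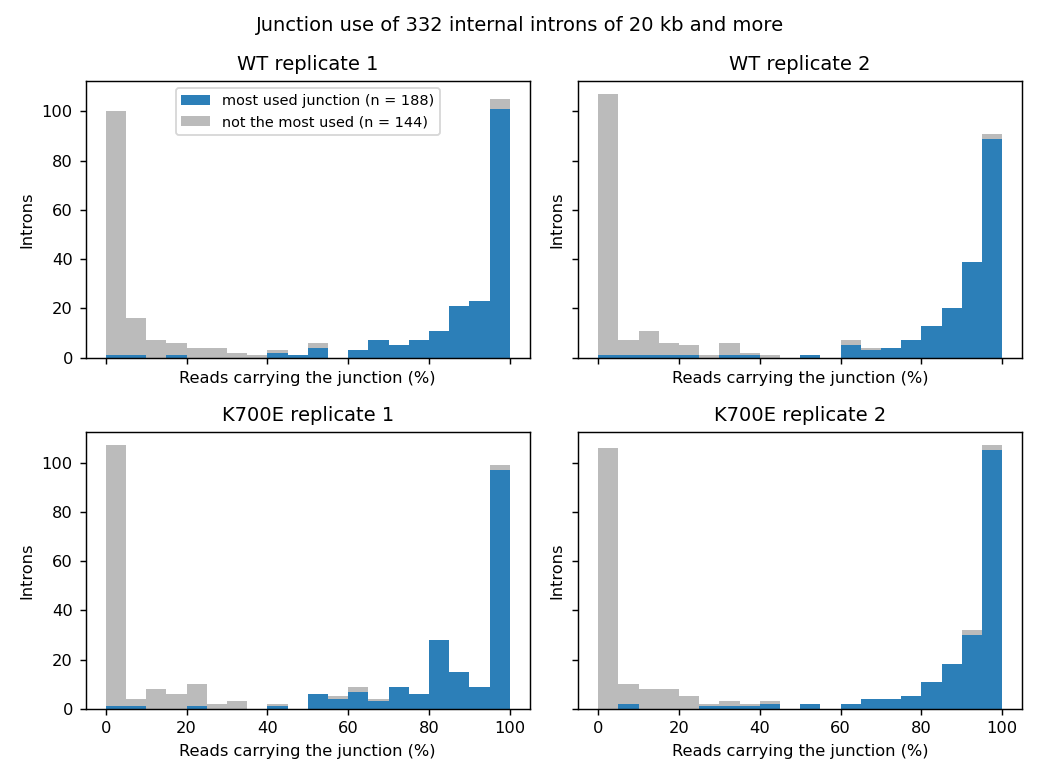
Number of very long internal introns (vertical axis) by the share of reads carrying their junction (horizontal axis, %), in each of the 4 samples. The 188 most used introns, kept in order of junction reads so that none overlaps another (blue), pile up near 100%, and the 144 others (grey) near 0.

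All placed introns were taken in order of junction reads summed over the 4 samples, from the most. An intron was kept if it overlapped none kept before it. In this way 188 of the 332 were kept, and they are called the most used. A kept intron can still overlap a left-out intron with more junction reads. These 188 averaged 89.4% and 89.0% in WT, against 87.5% and 90.9% in K700E, and 160 of them reached 80%. This division was made on junction reads, so the high values of these 188 and the low values of the others are in large part set by it. The 144 others averaged 7.77% and 7.24% in WT, against 7.26% and 6.66% in K700E, and 127 of them stayed under 20%. Without that division, 84 of the 252 introns with an overlapping placed intron reached 80%. Placed introns are the annotated ones listed in the deposited counts of any sample, so this split too depends on what was sequenced. The 80 introns that no other placed intron overlapped averaged 93.5% and 93.7% in WT and 90.8% and 94.8% in K700E, with 78 at 80% or more.

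Junction reads of another annotated intron were numerous over most of the 144. For 132 of the 144 introns, the overlapping intron with the most junction reads had at least 50% as many junction reads as there were reads over the intron itself, and the median was 96.6%. The counts were made separately for each intron, and this ratio can pass 100%, so it is not a share of the same reads. That intron shared the 5′ splice site in 63 cases and the 3′ splice site in 59. It contained the intron in 10 cases, lay inside it in 7 and overlapped it otherwise in 5. Introns with an annotated exon of their own gene inside them numbered 189 and averaged 39.6% and 38.5% in WT, against 37.7% and 39.0% in K700E, and the 143 without one averaged 73.0% and 73.3% against 72.4% and 74.6%. The order was the same in all 4 samples. Introns with another gene of the same strand wholly inside numbered 30, of which 15 were most used introns.

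ELP4, which encodes a subunit of the Elongator complex that modifies transfer RNA, showed this in a single gene. Several genes tied with it at 5 very long introns, and they were not alike. Of the 5, the most used numbered 1 in ELP4, PTK2 and TCF12, 2 in THADA, 3 in ABCC4 and 5 in CDKAL1. The 5 very long introns of ELP4 lie on chromosome 11 (hg38, plus strand) between 31539784 and 31594769. The 54986-nt intron carried its junction in 24 of 25 and 27 of 28 reads in WT and in 6 of 6 and 33 of 33 in K700E. The 33803-nt intron, which shares its 5′ splice site and ends at a 38-nt exon, had 0 junction reads of 25, 28, 6 and 33. The 21145-nt intron on the far side of that exon also had 0, of as many reads. The 40899-nt intron had 1 junction read in WT replicate 1 and 0 elsewhere, and a 53293-nt intron had 1 in WT replicate 2 and 0 elsewhere. All samples thus joined the outer pair of exons, past every alternative exon between them, in all but 2 of the reads.

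TCF12 encodes a basic helix-loop-helix transcription factor and had the same arrangement over a longer stretch. Its 142651-nt intron (chromosome 15, 56921099 to 57063749, plus strand) carried its junction in 15 of 15 and 19 of 19 WT reads and in 7 of 7 and 20 of 21 K700E reads. The 4 other very long introns annotated there, of 80250, 151554, 170690 and 62365 nt, had 0 junction reads in all samples, from 5 to 21 reads each. A count of 0 in 7 reads limits little. With 3 reads taken as the upper limit of a count of 0, it allows a share of up to 42.9%. This rough rule, coarse at few reads, also gave the limits for counts of 0 further on. NF1, which encodes a Ras GTPase-activating protein and was chosen with its values in view, joined the exons at the ends of a 60480-nt intron in 26 of 27, 17 of 19, 7 of 9 and 6 of 7 reads (chromosome 17, 31265340 to 31325819, plus strand). The introns of 34170 and 26213 nt that flank an alternative exon inside it had 0 junction reads in every sample.

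**Figure D2:**
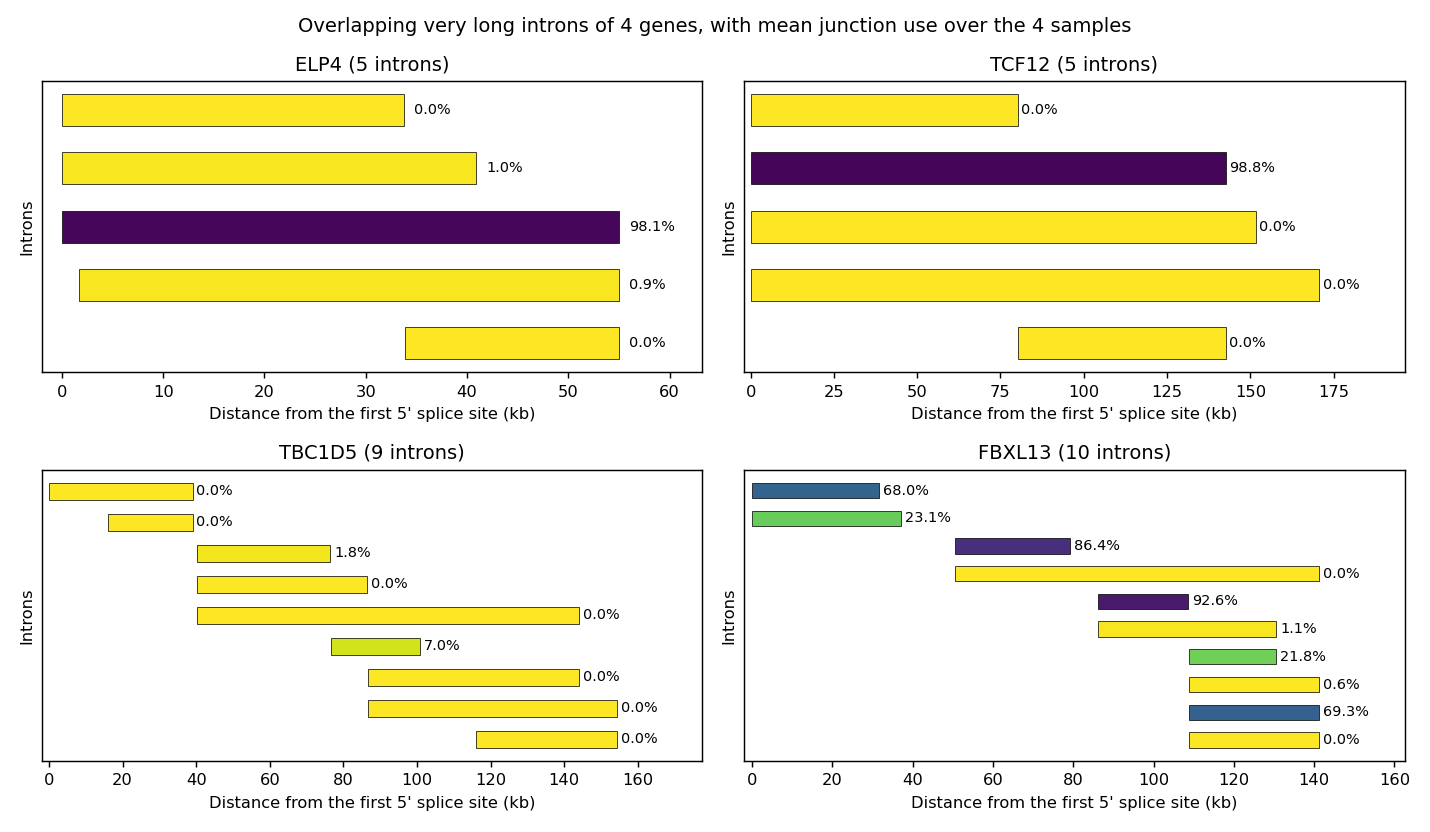
Very long internal introns of 4 genes drawn to scale from the first 5′ splice site (horizontal axis, kb), each bar 1 intron, with its mean junction use over the 4 samples printed beside it and as colour. One intron of ELP4 and one of TCF12 stand near 100% and the rest near 0; no TBC1D5 intron passes 10%, and FBXL13 holds several in between.

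TBC1D5, a Rab GTPase-activating protein of retromer trafficking, held 9 very long introns, and none was the most used among those it overlapped. These lie on chromosome 3 (minus strand) between 17508606 and 17662989. The 24210-nt intron had the most junction reads of the 9, with 0 of 14 and 2 of 13 in WT and 0 of 5 and 2 of 16 in K700E. For 7 of the 9 the overlapping intron with the most junction reads was one of 115243 nt, whose junction had 7 and 5 reads in WT and 1 and 8 in K700E. For the other two it was a 118567-nt intron with 12 and 12 junction reads in WT and 9 and 15 in K700E. Neither longer intron was among the 332.

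FBXL13 encodes an F-box protein with leucine-rich repeats. Of its 10 very long introns on chromosome 7 (minus strand), 4 were most used introns. Some of its splice sites were used side by side. The 32573-nt intron carried its junction in 16 of 20 and 12 of 23 WT reads and in 8 of 10 and 26 of 40 K700E reads. The 21802-nt intron, which shares its 5′ splice site, carried its own in 3 of 21, 7 of 23, 2 of 10 and 9 of 40 reads. The longer form led in all 4 samples.

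SLC7A11, the cystine and glutamate antiporter, also chosen with its values in view, divided its reads as well. From a shared 5′ splice site (chromosome 4, minus strand), the 31279-nt junction had 13 of 16 and 2 of 6 reads in WT and 3 of 5 and 5 of 6 in K700E. The 29340-nt junction had 3 of 17 and 4 of 6 in WT and 1 of 5 and 1 of 6 in K700E. The order was turned in WT replicate 2, at 6 reads.

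For 5 of the 188 most used introns, the junction was still in under 50% of reads. PIK3CB, a catalytic subunit of phosphoinositide 3-kinase, had the plainest case, which was chosen with its values in view. Its 26345-nt intron (chromosome 3, 138770118 to 138796462, minus strand) carried its junction in 1 of 15 and 2 of 22 WT reads and in 1 of 17 and 2 of 40 K700E reads. The only other placed intron over it, of 75335 nt, had 0 and 1 junction reads in WT and 0 and 2 in K700E. Most of the reads over it thus carried neither junction, and the tables do not say how they ran.

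Several used introns were among the best read. CPED1 had 4 very long introns on chromosome 7 (plus strand). Its 24236-nt intron (121100095 to 121124330) carried 153 junction reads of 155 and 330 of 337 in WT, and 72 against 70 reads over the intron and 275 of 280 in K700E. Counts above the reads over the intron occur in the deposited tables and were read as 100%; they touched 36 of the 332 introns in at least 1 sample. The 94572-nt intron of CPED1 stood at 100% in every sample, from 72, 73, 29 and 67 reads. A 52805-nt intron of the gene had 0 of 70 and 1 of 177 junction reads in WT and 0 of 28 and 0 of 65 in K700E. That 0 of 28 would allow a share of up to 10.7%.

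The other best-read introns carried their junction in nearly all reads. LRBA, a BEACH-domain protein of vesicle trafficking, carried the junction of its 85361-nt intron (chromosome 4, 150929066 to 151014426, minus strand) in 97.6% and 98.2% of WT reads and 97.0% and 97.6% of K700E reads. CDKAL1, a transfer RNA methylthiotransferase, had 5 very long introns, all of them most used introns. Its 100587-nt intron (chromosome 6, 20548706 to 20649292, plus strand) stood at 94.7% and 95.8% in WT, against 100% and 95.2% in K700E. MACF1, which links microtubules to actin, stood at 100% in all 4 samples over 24179 nt (chromosome 1, 39258029 to 39282207, plus strand), from 111, 135, 27 and 92 reads.

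The longest introns held some with nearly all reads joined and some with none. The longest intron, 172391 nt in CALN1 (chromosome 7, 72106295 to 72278685, minus strand), a calcium-binding protein gene, carried its junction in 5 of 5 and 22 of 23 WT reads and in 16 of 16 and all K700E reads, with 22 junction reads against 21. The CALN1 intron before it, of 133247 nt, stood at 7 of 7 and 37 of 38 in WT and at 25 of 25 and 26 of 26 in K700E. The 153248-nt intron of ARL15 (chromosome 5, 54154640 to 54307887, minus strand), a small GTPase gene, had 0 junction reads of 39 and 46 in WT and of 20 and 93 in K700E. Those zeros would allow shares of up to 7.69%, 6.52%, 15.0% and 3.23%. A 17144-nt intron with the same 3′ splice site took 40, 32, 10 and 68 junction reads there. Across the 188 most used introns Spearman's rho between length and junction use was 0.08 and 0.11 in WT, against 0.19 and -0.01 in K700E; introns of a gene share reads, and no test was made.

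Introns with no junction read in any sample included some with many reads and some with few. ATP2A2 encodes a calcium pump of the endoplasmic reticulum, and its 29652-nt intron (chromosome 12, 110296738 to 110326389, plus strand) had 0 junction reads of 82 and 32 in WT and of 14 and 27 in K700E. A 26254-nt intron from the same 5′ splice site had 85, 35, 19 and 32. OSBPL9, an oxysterol-binding protein family gene, had 0 of 20, 17, 8 and 11 over 26063 nt (chromosome 1). SMYD3, a lysine methyltransferase gene, had 0 of 14, 55, 21 and 69 over 23293 nt (chromosome 1). NUMB, a Notch inhibitor, had 0 of 7, 8, 6 and 14 over 32396 nt (chromosome 14), where a 32421-nt intron from the same 5′ splice site had 7, 8, 6 and 13. An ABCC4 intron of 21556 nt (chromosome 13) had 0 of 6, 8, 7 and 10.

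Close to the limits of the rule, values ranged widely on both sides. The 3 introns just over 20000 nt were in SLC38A1, at 96.8%, 100%, 100% and 100% in the order WT 1, WT 2, K700E 1 and K700E 2, HIKESHI, at 25.0%, 36.4%, 20.0% and 0%, and SPAG9, at 67.9%, 65.0%, 55.6% and 73.3%. The 3 just under it were in RLF, at 96.1%, 66.7%, 66.7% and 100%, MTHFD1L, at 0% in every sample, and RABGAP1L, at 100%, 87.5%, 77.8% and 83.3%. The 94 introns whose lowest read count was exactly 5 averaged 48.6% and 47.2% in WT, against 44.7% and 47.5% in K700E. The 138 left out at a lowest count of 4 averaged 54.1% and 52.0% against 51.0% and 53.6%.

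Very long introns were then set beside the 5751 internal introns of 1000 to under 20000 nt that met the same read minimum. They carried their junction less often in every sample: the gap was -19.5 and -16.2 percentage points for WT and -15.0 and -17.5 for K700E. The mean gap was -17.1 points (exact sign-flip permutation over the 4 samples, two-sided, p = 0.125, the smallest that 4 samples allow). The same introns were measured in every sample, so this p covers spread between samples and not between introns or genes. With at least 20 reads in every sample, which 20 of the very long introns had, the gap turned to 5.47 points. A smaller share of the very long introns was in the most used class, 56.6% against 76.9%. With only such introns in both classes the mean gap was 0.00546 points, but this restriction selects on the junction reads that are compared, and a small gap is in large part built in. With no own exon inside the intron in either class the gap was -3.51 points.

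The comparison was repeated against introns of the same gene. For the 300 very long introns in 160 genes that also had measured internal introns under 20000 nt, junction use minus the gene's own mean was -7.94 and -6.70 points for WT and -6.20 and -6.72 for K700E. The mean was -6.89 points (exact sign-flip permutation, p = 0.125, the smallest possible), with 131 introns above and 161 below their gene's mean. Here too the p covers spread between samples only. The direction of this gap was not stable: it was 8.97 points with at least 20 reads in every sample, 1.10 with 1 intron per set sharing a splice site, 0.903 without an own exon inside and -0.0478 as a median over introns. Among the most used introns, again selected on what is compared, the gap was 0.329 points.

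**Figure D3:**
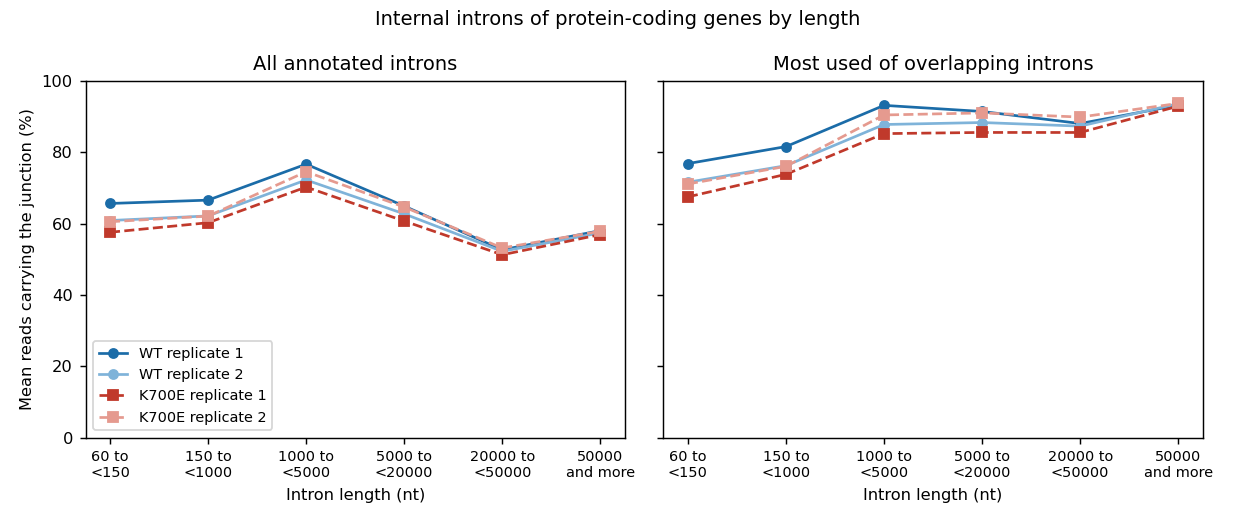
Mean share of reads carrying the junction (vertical axis, %) by intron length class (horizontal axis, nt) for the 4 samples. All annotated internal introns are on the left and the most used ones on the right. On the left the 2 classes of 20000 nt and more are lowest in every sample; on the right the class of 50000 nt and more stands at 92.9 to 93.7%.

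By length class, the most used introns averaged 76.8% and 71.6% in WT and 67.5% and 71.1% in K700E at 60 to under 150 nt. At 20000 to under 50000 nt they stood at 88.1%, 87.4%, 85.6% and 89.9%, and at 50000 nt and more at 93.2%, 93.7%, 92.9% and 93.7%. In each sample the most used very long introns thus stood above the most used introns of 60 to under 150 nt. This was not particular to them. In the same sample order, most used introns of 1000 to under 5000 nt stood at 93.2%, 87.8%, 85.3% and 90.5%. Those of 5000 to under 20000 nt stood at 91.5%, 88.4%, 85.6% and 91.1%. These classes were selected on the junction reads that are compared. The rule by which reads were given to introns was not stated in these sources. Whether reads without the junction were counted alike over introns of such unlike length was not tested, and no test was made of the difference.

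The exons flanking very long introns were close in length to those flanking the 5751 shorter ones. The upstream exon had a median of 116 nt against 121, and the downstream exon 111 nt against 121. The upstream exon ended in AG at 58.4% of very long and 59.1% of shorter introns. Both flanks were coding sequence at 70.8% against 84.7%, and at 88.8% of the most used very long introns against 47.2% of the other very long introns. Very long introns had low numbers in their transcripts: 33.4% were the second intron, against 12.5%, and the median intron number was 3 against 7. Their transcripts also had fewer introns, with a median of 15 against 22, and the numbers were not adjusted for that.

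Between genotypes the mean junction use of very long introns differed by less than its spread within K700E. It was 53.8% ± 0.338 for WT and 53.5% ± 1.18 for K700E (SD, 2 samples each), a difference of -0.249 points (exact permutation of the samples, two-sided, p = 1.0, where 2 against 2 cannot go below 0.333). Without K700E replicate 1, the shallowest, it was 0.589 points. Junction use was lower in K700E for 125 introns, higher for 124 and equal for 83. The equal ones include the 68 with no junction read and the 14 with it in every read. Of all 19467 placed introns with the same read minimum, 9233 were lower, 6320 higher and 3914 equal, and the difference in balance was not tested. Between the 2 WT samples a very long intron differed by 6.41 points on average, between the 2 K700E samples by 7.87, and between a WT and a K700E sample by 5.79 to 8.55. Differences across genotype were thus of the size of those within it.

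**Figure D4:**
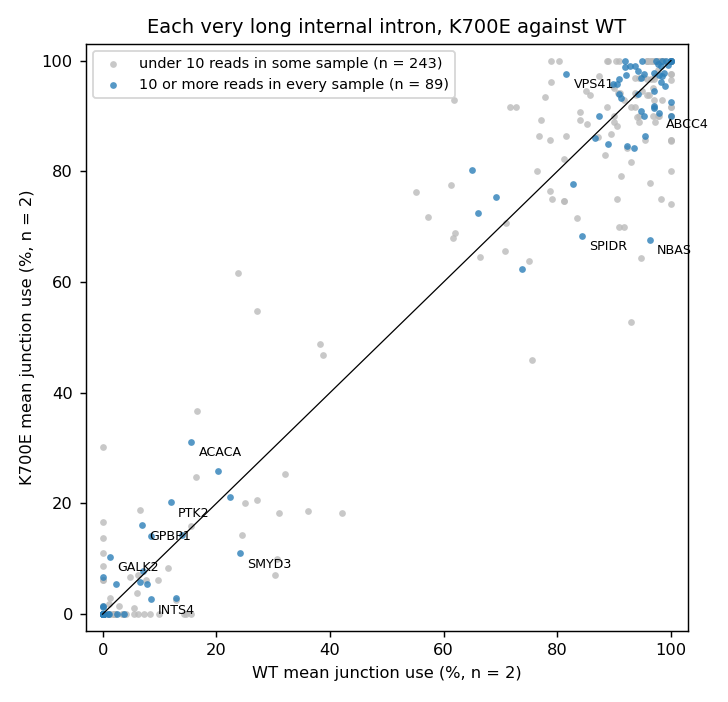
Mean junction use in K700E (vertical axis, %) against WT (horizontal axis, %) for each very long internal intron, n = 2 samples a group, with the line of equality. Blue points have at least 10 reads in every sample; the points lie at the 2 ends, on both sides of the line, and the introns with the largest differences are named.

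The gap to the shorter introns was 1.57 points smaller in K700E than in WT (exact permutation, p = 0.667). Without WT replicate 1, in which shorter introns carried their junction most often, that difference was -0.106 points. Shorter introns averaged 73.5% and 69.7% in WT and 67.7% and 71.9% in K700E.

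Tested one by one with edgeR's quasi-likelihood test over 15616 introns, 4 introns passed an adjusted p of 0.05, which is 0.0256% of those tested, 3 lower and 1 higher in K700E. None of the 250 very long introns tested was among them, and their lowest adjusted p was 1.00. The 82 others had no contrast, since 68 had no junction read and 14 had no other. An unadjusted p under 0.05 was reached by 4 of the 250, or 1.6%, against 2.25% of all introns tested. With an estimated dispersion, with DESeq2 and with limma 0 of them passed, but neither did any of the 15616 introns. In these fits 3, 2 and 7 very long introns had an unadjusted p under 0.05. The share over all introns was not taken for these fits. Counts were simulated at the depths of all introns tested, with the spread between samples beyond counting error (overdispersion) set at 0.05. In that setting little could be called: a log2 odds ratio of 4 was called in 1% of the introns given it. The fit with an estimated dispersion called 0% of them, also at 20 times the reads. Its 0 calls therefore tell nothing about the very long introns.

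The groups did not overlap at 28 very long introns lower in K700E, 11.2% of the 250, where 17.7% of all introns tested were lower. They did not overlap at 36 higher in K700E, 14.4%, where 9.52% of all tested were higher. These are shares of introns that share reads and the same 4 samples, and the difference from the background was not tested.

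The largest difference below WT was in NBAS. The gene encodes a subunit of a tethering complex for vesicles that return from the Golgi to the endoplasmic reticulum, and its 23192-nt intron lies on chromosome 2, 15511351 to 15534542, minus strand. The junction was carried by 73 of 75 reads (97.3%) and 139 of 146 (95.2%) in WT and by 14 of 27 (51.9%) and 65 of 78 (83.3%) in K700E. The 95% Wilson intervals, which cover counting error only, were 90.8 to 99.3% and 90.4 to 97.7% in WT and 34.0 to 69.3% and 73.5 to 90.0% in K700E. Both K700E samples were thus lower, but they also differed from each other. The difference was -28.7 points, -12.9 with K700E replicate 1 left out and -44.4 with K700E replicate 2 left out, and the log2 odds ratio was -2.91 ± 0.96 (standard error; edgeR adjusted p = 1.00, unadjusted 0.0024). No other placed intron overlapped it. The other two very long introns of NBAS stood at 93.5% and 88.1% in WT against 93.3% and 94.6% in K700E over 33406 nt, and at 100% and 96.9% against 100% and 100% over 21226 nt.

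SPIDR, a scaffold protein of homologous recombination, held a pair of introns with opposite differences. The 102345-nt intron (chromosome 8, 47294031 to 47396375, plus strand) carried its junction in 14 of 18 and 10 of 11 WT reads and in 7 of 10 and 22 of 33 K700E reads. The difference was -16.01 points, -9.44 without WT replicate 2 and -22.6 without WT replicate 1 (edgeR adjusted p = 1.00). A 105238-nt intron with the same 3′ splice site and an earlier 5′ splice site, whose junction skips the exon before the 102345-nt intron, had 0 of 15 and 0 of 8 in WT and 2 of 7 and 7 of 22 in K700E. Its groups did not overlap, and its unadjusted p was 0.022 (edgeR adjusted p = 1.00). It has under 10 reads in 2 samples and was chosen with its values in view.

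**Figure D5:**
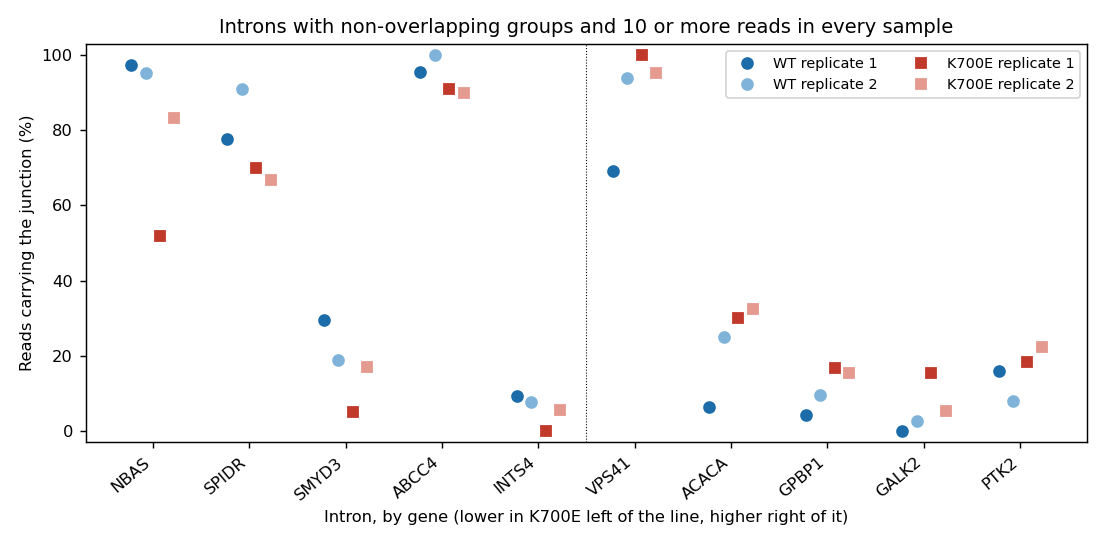
Share of reads carrying the junction (vertical axis, %) in each sample for the 5 largest differences below WT (left of the dotted line) and the 5 largest above (right) among very long introns with non-overlapping groups and no sample under 10 reads. Circles are WT and squares K700E samples; NBAS runs from 97.3% to 51.9%, and no adjusted p was under 0.05.

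The other differences below WT were smaller and rested on few reads. An ABCC4 intron of 32631 nt (chromosome 13; a transporter that exports cyclic nucleotides) stood at 95.7% and 100% in WT and at 90.9% and 90.0% in K700E. SMYD3 used a 64044-nt intron in 5 of 17 and 14 of 74 WT reads and in 1 of 20 and 9 of 53 K700E reads; K700E lay -13.2 points from WT, or -7.93 with WT replicate 1 left out and -7.18 with K700E replicate 1 left out. INTS4, an Integrator subunit, used a 20320-nt intron in 4 of 43, 3 of 39, 0 of 19 and 3 of 55 reads, with K700E at -5.77 points from WT, or -3.04 with K700E replicate 1 left out. The SMYD3 and INTS4 introns are minor forms in both genotypes.

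Differences above WT had the same scale. VPS41, a subunit of the HOPS tethering complex, carried the junction of its 28837-nt intron (chromosome 7, 38869254 to 38898090, minus strand) in 9 of 13 and 62 of 66 WT reads and in 12 of 12 and 40 of 42 K700E reads. The difference of 16.03 points came to 3.68 without WT replicate 1 and to 28.4 without WT replicate 2. ACACA, the cytosolic acetyl-CoA carboxylase, used a 40644-nt intron in 1 of 16 and 12 of 48 WT reads and in 3 of 10 and 11 of 34 K700E reads, and its difference of 15.6 points came to 6.18 and 24.9 in the same settings. GPBP1, GALK2 and PTK2 differed by 9.14, 9.01 and 8.20 points in minor introns of 54445, 44198 and 26143 nt. GALK2 came to 3.95 points without K700E replicate 1 and to 14.1 with the other K700E sample left out. PTK2 came to 4.202 points without WT replicate 2. All 10 had an edgeR adjusted p of 1.00.

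USP15, a deubiquitinase, and STAM, an endosomal sorting protein, had the remaining unadjusted p-values under 0.05, and they were singled out for that. USP15 includes or skips an exon after a shared 5′ splice site (chromosome 12, 62325934, plus strand). Its 23287-nt junction was carried by 17 of 39 and 8 of 12 WT reads and by 6 of 9 and 30 of 35 K700E reads, and its 29397-nt junction by 8 of 38, 3 of 9, 2 of 8 and 5 of 31. WT replicate 2 and K700E replicate 1 were equal at 66.7%, so the groups of the first overlap. STAM carried its 24126-nt junction (chromosome 10, 17660549 to 17684674, plus strand) in 27 of 35 and 20 of 24 WT reads and in all 7 and all 19 K700E reads.

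ITCH, a ubiquitin ligase, gave the closest resolved pair of 3′ splice sites among these introns and was also chosen after its values were seen. From one 5′ splice site (chromosome 20, 34369471, plus strand), the 24299-nt junction had 3 of 6 and 2 of 19 reads in WT and 1 of 7 and 0 of 18 in K700E. The 24320-nt junction, 21 nt further on, had 3 of 6 and 14 of 19 in WT and 6 of 7 and 18 of 18 in K700E. Both K700E samples used the farther site in a higher share of reads than either WT sample (edgeR unadjusted p = 0.072, adjusted p = 1.00). Junctions within 12 nt of each other could not be resolved: KMT2C has 2 very long introns of 27847 and 27844 nt with identical junction counts of 50, 5, 5 and 15.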

How the data were processed

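For each of the 4 samples the authors deposited, per annotated intron, 2 read counts without normalization: all reads over it and those carrying its junction. Their ratio was deposited too. Of tools and builds the submitters' processing notes list cutadapt, minimap2 and hg38; versions, and how reads were given to introns, are not given in the sources. Tables of RNA 3′ end positions were not used, since their rows bear no identifiers.

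Introns were placed on GENCODE 29 by transcript, number, start and strand (87.3 to 87.6% of rows) and counted once per position, with the highest count where transcripts disagreed. Ratios above 1 were set to 1. Members and lists were chosen with earlier results of these data known, and the check of nested introns and the division by overlapping introns were added after values were seen. Named introns were the 6 with most reads in their shallowest sample, the 4 longest, the 5 largest differences each way with 10 or more reads and groups that do not overlap, the 5 lowest (ties at 0 by position), the genes with the most members and those at the limits of the rule, 1 per set sharing a splice site; others are marked in the text. Sequences at the splice sites inside introns were not analysed here.

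Junction reads and other reads of each sample were fitted as paired columns with edgeR 4.0.16 in R 4.3.3, with a negative binomial dispersion of 0, Benjamini-Hochberg adjusted over all introns tested. That dispersion came from an earlier analysis of these data, which chose it on simulated calls after the estimated one had been seen. With it the scatter of a single intron has little weight in its p. DESeq2 1.42.0 and limma 3.58.1 were alternatives. Simulated counts had an overdispersion set at 0.05, and the changed introns were drawn from all introns tested. On 14763 simulated introns at these depths a log2 odds ratio of 4 was called in 1% of the introns given it. One of 2 was called in 0%, and 0 unchanged introns were called. At 20 times the reads, a setting added afterwards, these were 54%, 8% and 4, over 15595 introns. Means over introns were compared by exact permutation over samples in Python 3.11.15. Protocols in the labels mention no molecular identifiers, so intervals cover counting error only.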

Additional observations from a re-analysis of the deposited data

How the results depend on the processing

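Depth limits every result: only 89 of the 332 introns had 10 reads in each sample and 20 had 20. The genotype difference in the mean over very long introns, -0.249 points, was 0.000522 with at least 10 reads, 0.361 without an own exon inside and -1.09 to 0.589 with single samples left out, the last without K700E replicate 1. It was -1.79 as a median and -2.59 over pooled reads. The gap to shorter introns, -17.1, was 5.47 with at least 20 reads, 0.00546 with the most used introns, 2.65 where the very long introns alone had no own exon inside, -5.91 with 1 intron per set sharing a splice site and -9.53 by protein-coding transcripts alone. Single samples left out gave -17.8 to -16.3. The gap within genes, -6.89, was 8.97 with at least 20 reads, 0.329 with the most used, 0.903 without an own exon, 1.10 with 1 per set, -11.4 with at least 10 reads, -3.98 by protein-coding transcripts alone, -2.23 from 50000 nt and -0.0478 as a median. Single samples left out gave -7.12 to -6.54. The genotype difference of the gap, 1.57, was 2.20 with at least 1 read, 2.36 with the most used introns or with no own exon inside in either class, 2.31 as a median, 2.42 over pooled reads, and -0.106 to 3.24 with single samples left out, the lowest without WT replicate 1. Apart from the fewer introns or samples of each setting, the cause was not tested. Single introns turned sign in 2 cases without K700E replicate 1, CPED1 (24236 nt) and CDKAL1 (100587 nt): with single samples left out they ran from -0.102 to 1.68 and from -0.047 to 4.71 points. Settings with 1 intron per set, and with no own exon inside in both classes, were chosen after the data were seen.

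The replicate numbers were not shown to pair the samples: same-numbered samples' deviations correlated at -0.0614 over all introns tested and at -0.149 over the very long ones. With the replicate block 0 very long introns and 2 of all were called, and the differences stayed at -0.249 and 1.57 points. With the numbers crossed 0 and 4 were called. In every other setting run, 0 very long introns were called, from 17 to 1082 tested, while 0 to 7 of all introns were.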
